A study of Homo sapiens with 8 samples.

Results

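The deposited tables hold 109 features whose symbol begins with LINC, the prefix given to long intergenic non-protein-coding RNAs that have no other name. The selection rule took every LINC feature except LINC00174, LINC00302 and LINC00319, which leaves 106 of the 2709 non-coding features. All 3 omitted features were called higher in exosomes (log2 5.94, 8.24 and 5.75, edgeR's quasi-likelihood test). The counts of calls below are therefore lower than those over all LINC features. With the omitted features added, 19 of 45 tested would be called higher, against 20.7% of all 1178 features tested.

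Long intergenic RNAs are transcribed by RNA polymerase II, are mostly spliced and polyadenylated, and are often present at low levels and in few tissues. Some are host genes: a microRNA hairpin, a tRNA gene or a small Cajal body RNA lies within an exon or an intron, and the small RNA that is cut out or separately transcribed is often far more stable than the long transcript. A count on such a host can therefore hold reads of the small RNA, of the long RNA, or of both.

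Small RNA libraries were made from MEC-1, an established B-cell line from chronic lymphocytic leukaemia (n = 3), and from the exosomes, small secreted vesicles, that these cells released in culture (n = 5). The cells grew in bioreactors, with no treatment named, in medium with calf serum; the serum exosomes had been removed by ultracentrifugation, though not from the bioreactor's upper compartment. Vesicles were pelleted at 100000 g and separated on a 20% density cushion. RNA under 200 nt was then isolated, and 30 ng entered each library with 15 cycles of PCR. The line is 1 model. The design text says that cells were harvested alongside 3 of the 5 exosome samples and does not name those 3. The labels do not state whether replicates of a group are independent cultures, and p-values then reflect the spread among these libraries alone, which may be technical. In bulk libraries like these, fewer vesicles or cells that carry an RNA and less of it in each cannot be told apart.

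Libraries held 23353820 to 32436286 counts for exosomes and 25675636 to 57323598 for cells, and rRNA took 37.7% to 72.4% of exosome and 24.6% to 30.7% of cell counts. Levels are given as counts per 1000000 (CPM) of a library's total times its TMM scaling factor, which is 0.524 for exosome 5, 0.552 for cell 2 and 0.905 to 1.46 for the others. Of the lymphoid markers, 6 had a feature (DLEU2, MIR155HG, MIR150, MIR21, MIR181A1 and MIR181A2), all 6 had reads, and their summed level ran from 13318 to 26360 CPM in exosomes and from 21164 to 38513 CPM in cells. Of 4 features on the neural list, the brain miRNAs MIR124-2 and MIR124-3 were at 0 in all 8 libraries, and MIR9-1 and MIR9-3 had reads in all of them (list sum 7.27 to 53.4 CPM in exosomes and 46.8 to 91.4 CPM in cells).

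All 106 LINC features are longer than the RNA that entered the libraries. Their counted length, the summed exon bases over which reads were assigned, ran from 387 to 8615 nt with a median of 1931.5 nt. No read therefore stands for a whole long RNA. A read may come from a fragment, from a small RNA within the feature, or from a like sequence elsewhere. They lie on 21 chromosomes, 22 of them on chromosome 21 and 7 on X. RefSeq holds 101 of the 106, 78 under the same symbol and 23 under another symbol, with the LINC symbol as an older name. It lists 10 of the 101 as protein-coding today. Examples are LINC00116, now MTLN, and LINC00493, now SMIM26, both genes of small mitochondrial proteins.

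The small RNAs inside LINC features are shown first because LINC00338, LINC00461 and LINC00324, which took most of the LINC reads, span small RNAs. MIR9-2, whose miRNA is abundant in the developing brain, lies within LINC00461 (RefSeq name MIR9-2HG) and has no feature of its own in the tables. Its hairpin and those of MIR9-1 and MIR9-3, which lie on other chromosomes and have features, are from RefSeq, GRCh38.p14, at chr5:88666853-88666939 (minus strand), chr1:156420341-156420429 (minus strand) and chr15:89368017-89368106 (plus strand). Capitals mark the mature miRNAs, written 5′ to 3′.
MIR9-2: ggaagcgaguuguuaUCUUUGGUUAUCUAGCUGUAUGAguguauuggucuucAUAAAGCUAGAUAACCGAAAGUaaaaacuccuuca
MIR9-1: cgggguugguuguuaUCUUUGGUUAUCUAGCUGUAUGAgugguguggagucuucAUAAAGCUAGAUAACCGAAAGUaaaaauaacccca
MIR9-3: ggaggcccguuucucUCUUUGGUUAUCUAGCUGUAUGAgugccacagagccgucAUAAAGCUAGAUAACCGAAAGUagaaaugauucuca
The mature strands of the 3 genes are identical, 1 sequence for miR-9-5p and 1 for miR-9-3p, so a read of either strand maps equally well to each gene. How reads with several equally good positions were counted is not stated by the labels or file headers. The mature strands with their seed, bases 2 to 8, in capitals are these.
hsa-miR-9-5p: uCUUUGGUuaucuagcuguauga
hsa-miR-9-3p: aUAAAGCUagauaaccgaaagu

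LINC00324 holds tRNA genes. The tables give features of tRNA length by number only, and 4 of them, 7881, 7882, 7883 and 7854, lie within its span. Their spacing on GRCh37 equals that of the RefSeq genes TRP-CGG1-3, TRD-GTC2-11, TRW-CCA1-1 and TRG-TCC3-1 on GRCh38 base for base (offsets from 7883 of 1964, 1369, 0 and 679). Features 7881 and 7883 lie whole, on the same strand, in the counted exons of LINC00324, whose exon lengths of 232, 868 and 982 nt are the same in GENCODE 29 and in the tables. Both tRNA genes are shown within the LINC00324 transcript of GENCODE 29 (GRCh38, minus strand), with the tRNA gene in capitals and 15 flanking bases on each side, at chr17:8222818-8222919 for TRP-CGG1-3 and chr17:8220854-8220955 for TRW-CCA1-1.
TRP-CGG1-3: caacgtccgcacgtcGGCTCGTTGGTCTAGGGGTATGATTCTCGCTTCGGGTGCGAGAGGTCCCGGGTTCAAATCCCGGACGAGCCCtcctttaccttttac
TRW-CCA1-1: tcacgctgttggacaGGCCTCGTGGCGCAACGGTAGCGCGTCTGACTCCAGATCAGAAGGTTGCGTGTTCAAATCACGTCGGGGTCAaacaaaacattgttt

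LINC00338 is the former name of SNHG20. Its RefSeq span holds SCARNA16, of the small Cajal body RNAs, which guide the modification of spliceosomal RNAs, and MIR6516, neither of which has a feature here. SCARNA16 is 187 nt long, below the size limit of the input RNA, and is given from GENCODE 29 (GRCh38, plus strand) at chr17:77089307-77089493, with capitals for the 77 bases it shares with the MIR6516 hairpin.
SCARNA16: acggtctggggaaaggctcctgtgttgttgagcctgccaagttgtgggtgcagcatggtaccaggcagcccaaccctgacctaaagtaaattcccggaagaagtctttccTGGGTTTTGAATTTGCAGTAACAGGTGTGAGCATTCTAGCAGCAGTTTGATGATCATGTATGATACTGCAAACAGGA
Measured from the start of the host's first exon, which is 148 nt long in both annotations, SCARNA16 falls at bases 2591 to 2777, within the third block of LINC00338 that the authors counted. In GENCODE 29 it lies in an exon of 2 of 18 SNHG20 transcripts, and no such exon has the length of a counted block, so the placing rests on spacing alone. By that spacing, reads of SCARNA16 would be counted on LINC00338, and how many were cannot be told apart in these tables.

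Reads on LINC features made up a small part of every library. Summed over the 106, they came to 200, 69.3, 146, 237 and 167 per 1000000 counts in exosomes 1 to 5 and to 184, 76.7 and 111 per 1000000 in cells 1 to 3, with means of 164 ± 63.0 (SD, n = 5) and 124 ± 54.9 (SD, n = 3). The groups overlapped. LINC00338, LINC00461 and LINC00324 together took 56.8% to 80.3% of the LINC reads in exosome libraries and 84.9% to 92.7% in cell libraries. Without these 3, the sum was 79.2, 16.6, 28.8, 103 and 61.5 per 1000000 in exosomes 1 to 5 and 27.7, 5.62 and 14.2 in cells 1 to 3, which is 57.7 ± 35.4 (SD, n = 5) against 15.8 ± 11.2 (SD, n = 3). Exosomes 1, 3, 4 and 5 then lay above all 3 cell libraries, and exosome 2 lay below cell 1.

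**Figure D1:**
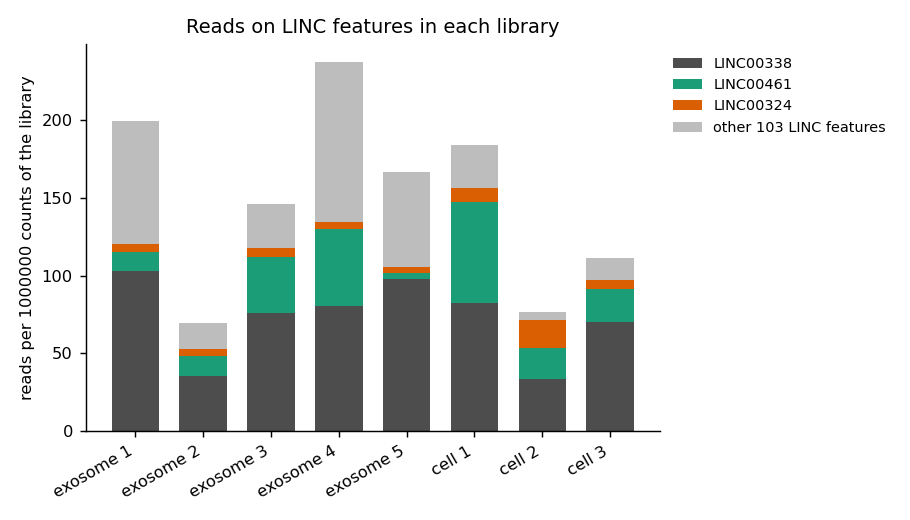
Reads on LINC features per 1000000 counts of each library (vertical axis), stacked for LINC00338, LINC00461, LINC00324 and the other 103 features, in 5 exosome and 3 cell libraries. The other 103 features reach 103 per 1000000 in exosome 4 and stay at or below 27.7 per 1000000 in the cell libraries.

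Most LINC features were barely detected. Of the 106, 103 had a read in some library and LINC00583, LINC00677 and LINC00160 had none. Exosome libraries had reads on 68 to 82 of them, cells 1 and 3 on 77 and 80, and cell 2 on 37, although cell 2 had 54461350 counts. In 9 features the reads came from exosomes alone, with at most 49 reads in all, and in 6 from cells alone, with at most 2. A count of 0 in every cell library allows up to 3 reads, so these 15 are not shown to be confined to a group. Libraries carried no molecular identifiers, so such limits cover counting error only.

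Longer features held more reads, and the relation was weaker or absent among the features with more reads. Spearman's rho between CPM and counted length over the 106 features was 0.312 to 0.549 in the exosome libraries and 0.451 to 0.483 in the cell libraries, and 0.464 and 0.558 for the group means. It was 0.445 and 0.548 over the 98 features without a small RNA in their span, by the deposited coordinates or by RefSeq. LINC00843 was left out there because the span of its RefSeq readthrough gene holds a small RNA. Over the 39 features with at least 10 counts in 3 libraries it was -0.07 in exosomes and 0.34 in cells. The features share libraries and scaling and are not independent, so these values are descriptions. Of 27 features under 1000 nt, 24 had reads and the median summed count was 4 in exosomes and 2 in cells. All 57 from 1000 to under 3000 nt and all 22 of 3000 nt or more had reads, with medians of 39 and 8 and of 75.5 and 20.5 summed counts.

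**Figure D2:**
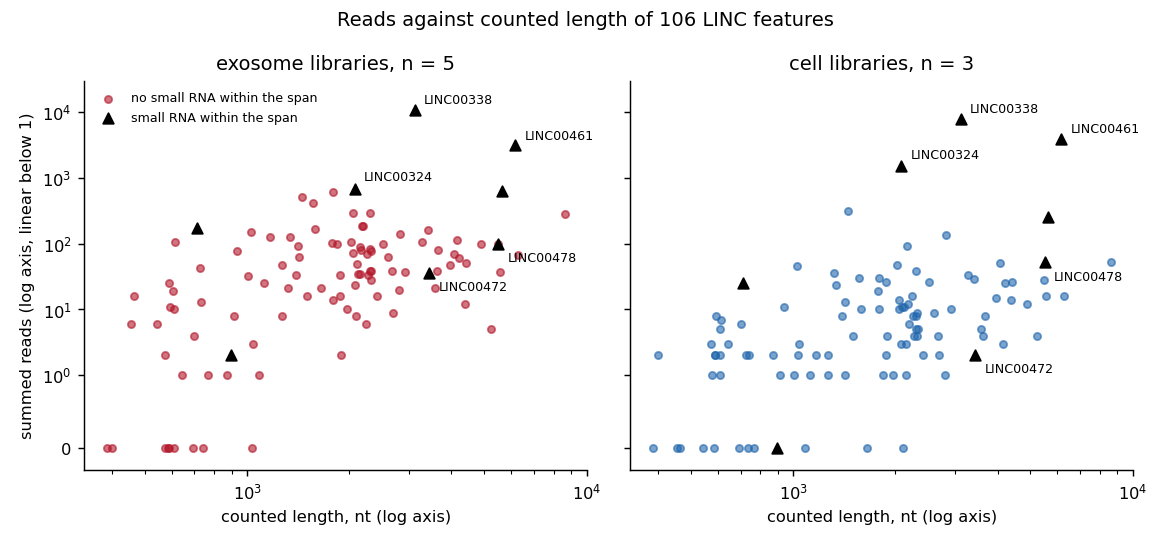
Summed reads of each of the 106 LINC features (log axis, linear below 1) against counted length in nt (log axis), in exosome libraries (left, n = 5) and cell libraries (right, n = 3). Triangles have a small RNA within the span, by the deposited coordinates or by RefSeq. For LINC00843 the span is that of its RefSeq readthrough gene. LINC00338, LINC00461 and LINC00324 have the most summed reads of the 106 in both groups, though in exosomes LINC00324, at 694, is close to the next, LINC00623, at 631.

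Per kilobase, LINC00338 stood first in both groups. It averaged 26.5 CPM per kb in exosomes and 21.0 in cells, against a median of 0.119 and 0.0259 CPM per kb over the 106. Next in exosomes came LINC00461 (2.86), LINC00273 (2.76), LINC00311 (2.39), LINC00324 (2.26) and LINC00052 (2.25), and in cells LINC00324 (7.22), LINC00461 (5.66) and LINC00273 (1.74). The spread over libraries was wide (LINC00461 averaged 17.7 ± 11.5 CPM and LINC00273 4.01 ± 3.46 CPM in exosomes), so the order of the exosome values after LINC00338 is not resolved. LINC00273 is a single counted block on chromosome 16 (33961052 to 33962503, GRCh37) with no small RNA in its span. Its log2 difference was 0.66 (SE 0.79, adjusted p = 0.533), and it turned to -0.51 with libraries 1 to 3 of each group alone.

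LINC00461 (chromosome 5, 87803363 to 87986858, minus strand, GRCh37; 14 counted blocks) had counts close to those of the MIR9 genes. It had 335, 426, 1170, 1147 and 95 reads in exosomes 1 to 5 and 1668, 1065 and 1225 in cells 1 to 3. MIR9-1, on another chromosome, had 232, 396, 1046, 909 and 52 reads in exosomes and 1665, 1056 and 1214 in cells. In the cells the counts of the host and of MIR9-1 were nearly equal, and in every exosome library the host had more. The MIR9-1 count came to 99.1% to 99.8% of the LINC00461 count in cells and to 54.7%, in exosome 5, up to 93.0%, in exosome 2, in exosomes. MIR9-3 had nearly the same counts as MIR9-1. In GENCODE 29 the MIR9-2 hairpin lies in an exon of 4 of 16 LINC00461 transcripts, and that exon has the length of a counted block, 3147 nt.

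As deposited, the mean level of LINC00461 was 17.7 ± 11.5 CPM (SD, n = 5) for exosomes and 34.9 ± 11.1 CPM (SD, n = 3) for cells, and it was not called (log2 -0.98, SE 0.58, adjusted p = 0.188). The MIR9-1 feature was not called either (log2 -1.28, SE 0.62, adjusted p = 0.106). Taking the MIR9-1 count from that of LINC00461 left 103, 30, 124, 238 and 43 reads in exosomes 1 to 5 and 3, 9 and 11 in cells 1 to 3. All 5 exosome values then lay above all 3 cell values, at 3.34 ± 2.23 CPM against 0.198 ± 0.109 CPM. In the fit across all features with that subtraction, which was chosen after seeing the data, the remainder was higher in exosomes (log2 4.06, SE 0.85, adjusted p = 0.0015). A remainder counts reads outside the mature miRNA only as far as the MIR9-1 count stands for the reads of MIR9-2.

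LINC00324 (chromosome 17, 8123960 to 8127361, minus strand, GRCh37) was the single LINC feature called lower in exosomes. It had 146, 142, 184, 112 and 110 reads in exosomes 1 to 5 and 231, 977 and 326 in cells 1 to 3. Cell 2 was far above the rest, and in CPM the groups overlapped, since exosome 5 (7.69 CPM) lay above cell 1 (6.34) and cell 3 (6.28). The fitted log2 difference was -1.68 (SE 0.59, adjusted p = 0.0316). The call was lost in 15 of the 17 alternatives that gave an adjusted p (DESeq2 gave none), among them limma-voom (-1.30), total count scaling (-1.16), and the fits without cell 2 (-0.57), cell 3 (-1.63), exosome 1 (-1.57), exosome 2 (-1.61), exosome 3 (-1.22) or exosome 4 (-1.15).

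The summed counts of the 2 tRNA features in its exons were close to that of LINC00324. Features 7881 and 7883 together had 139, 139, 173, 109 and 96 reads in exosomes and 221, 961 and 289 in cells, which is 87.3% to 97.9% and 88.7% to 98.4% of the LINC00324 count. Whether these reads came from the genes inside LINC00324 or from other tRNA genes of like sequence was not tested. Feature 7881, the proline tRNA gene by its spacing, had 886 of the 961 reads in cell 2 and was called lower (log2 -1.97, SE 0.62, adjusted p = 0.0174), a call that ended without cell 2 (-0.53), exosome 3 (-1.53) or exosome 4 (-1.48). Taking both away left 7, 3, 11, 3 and 14 reads in exosomes and 10, 16 and 37 in cells, and the remainder was not called (log2 -0.75, adjusted p = 0.549). On the opposite strand, within an intron, feature 7854, the glycine tRNA gene by its spacing, moved the other way: 646, 600, 821, 845 and 267 reads in exosomes and 84, 116 and 295 in cells (log2 2.31, SE 0.55, adjusted p = 0.00324; 3.04 without cell 3). In CPM every exosome library of feature 7854 lay above every cell library.

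**Figure D3:**
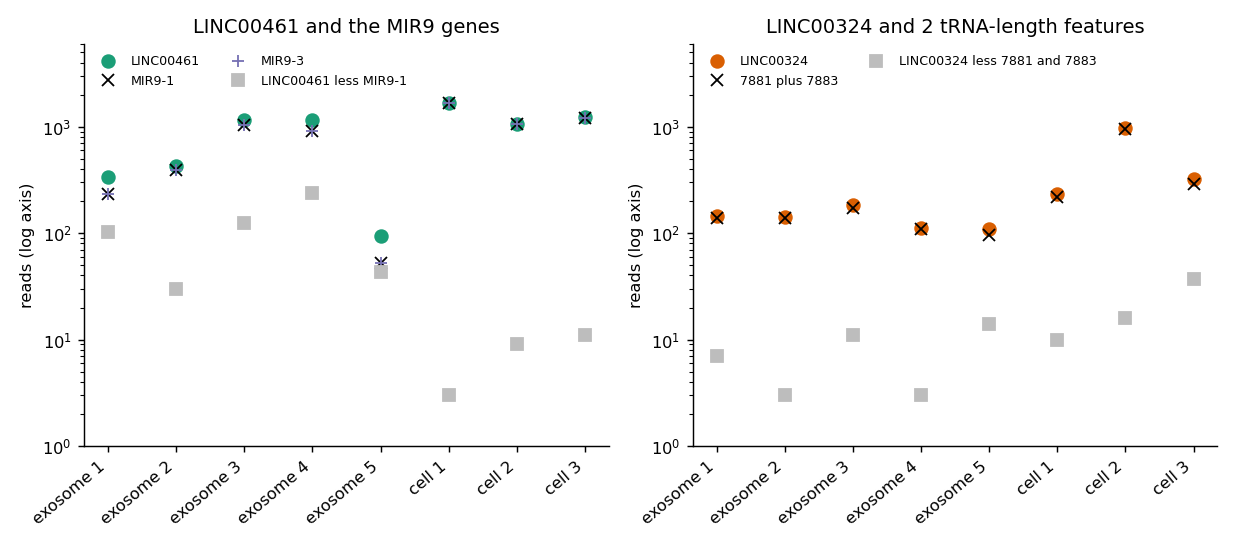
Reads (log axis) in each library for LINC00461 with the MIR9 features and the remainder after MIR9-1 is taken away (left), and for LINC00324 with features 7881 plus 7883 and the remainder (right). The LINC00461 remainder is 30 to 238 reads in exosomes and 3 to 11 in cells, while that of LINC00324 is at most 14 in exosomes and 10 to 37 in cells.

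LINC00338 (chromosome 17, 75082798 to 75091068, plus strand, GRCh37; 4 counted blocks) had 2767, 1137, 2457, 1884 and 2674 reads in exosomes 1 to 5 and 2119, 1830 and 4010 in cells 1 to 3. The groups overlapped. Its mean was 82.7 ± 61.2 CPM (SD, n = 5) in exosomes, raised by 187 CPM in exosome 5, and 65.4 ± 10.4 CPM (SD, n = 3) in cells. It was not called (log2 0.34, SE 0.59, adjusted p = 0.682), and the sign turned without exosome 5 (-0.19).

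Other hosts carry their miRNAs in introns, outside the counted exons, and there the long RNA and the miRNA had separate counts. LINC00478 (RefSeq MIR99AHG; chromosome 21, 17442842 to 17999716, GRCh37) hosts MIR99A, MIRLET7C and MIR125B2. Its exons had 42, 8, 21, 26 and 1 reads in exosomes and 28, 7 and 17 in cells and were not called (log2 0.36, SE 0.92, adjusted p = 0.778). MIRLET7C, of the let-7 family, fell in exosomes, from a cell mean of 274 ± 109 CPM to 91.7 ± 51.4 CPM (log2 -1.58, SE 0.54, adjusted p = 0.027). That call ended without exosome 1 (-1.37), exosome 4 (-1.16), exosome 5 (-1.45), cell 1 (-1.39) or cell 2 (-1.62). MIR99A (417 ± 299 against 464 ± 402 CPM, log2 -0.15) and MIR125B2 (9.39 ± 6.09 against 9.33 ± 5.86 CPM, log2 0.01) were not called. Reads of let-7c can also map to other let-7 genes, which differ from it in few bases. Whether other genes carry the mature strands of MIR99A or MIR125B2 was not checked, so their counts are not shown to come from this host. The mature strands of MIR99A, MIRLET7C and MIR125B2, from RefSeq and with the seed in capitals, share no seed.
hsa-miR-99a-5p: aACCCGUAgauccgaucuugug
hsa-let-7c-5p: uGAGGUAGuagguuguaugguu
hsa-miR-125b-5p: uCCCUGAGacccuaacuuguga

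LINC00472 (chromosome 6, 72054047 to 72130472, GRCh37) spans MIR30A and MIR30C2, members of the miR-30 family that share a seed, as their mature strands show (RefSeq; seed in capitals).
hsa-miR-30a-5p: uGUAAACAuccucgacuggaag
hsa-miR-30c-5p: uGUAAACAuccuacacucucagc
The exons of LINC00472 had 5, 3, 9, 11 and 8 reads in exosomes and 1, 0 and 1 in cells, too few to be tested. MIR30C2 (45.8 ± 14.6 against 65.5 ± 46.1 CPM, log2 -0.52, adjusted p = 0.526) and MIR30A (201 to 529 reads in exosome and 292 to 698 in cell libraries, log2 0.14, adjusted p = 0.853) were not called. Whether other genes carry the mature strands of MIR30A or MIR30C2 was not checked. The span of LINC00623 holds the variant U1 gene RNVU1-4, with 0 to 2 reads in exosome and 3 to 8 in cell libraries, and features 7573 and 7685, with 4 and 0 reads in all. LINC00623 itself, at 3.66 ± 1.76 CPM for exosomes and 2.11 ± 0.244 CPM for cells, was not called (log2 0.80, SE 0.59). By RefSeq, LINC00843 belongs to the readthrough gene TIMM23B-AGAP6, whose span holds SNORA74C-2, and LINC00334 spans an snRNA gene. LINC00334 had 2 reads in all, both from exosome 4.

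Of the 42 LINC features with enough reads to be tested, 16 were higher in exosomes, 1 was lower and 25 were not called. Over all 1178 features tested, 20.7% were called higher, 22.3% lower and 43% in either direction, against 38.1% higher among the 42. The median log2 difference was 1.96 over the 42 and -0.09 over all features, and 37 of the 42 had a positive value. These counts cover only features that passed the filter on low counts, which a feature can pass through the exosome libraries alone. Scaling by total counts moved the median of all features to 0.19, upper-quartile scaling to 0.25 and totals without rRNA to 0.77. The LINC features called higher were then 14 of 42 (19.5% of all features tested), 17 of 42 (24.7%) and 22 of 44 (28.6%), and their median was 1.89, 2.24 and 2.89. With 1 library left out they were 9 of 34 without exosome 1 (18.1% of all features), 10 of 55 without cell 2 (16.2%) and 10 of 55 without cell 3 (17.8%), so that the share without cell 2 or without cell 3 was near that of all features. With other tools they were 26 of 72 with DESeq2 (21%), 9 of 42 with limma-voom (19.5%) and 28 of 103 with no low-count filter (15.1%). The limma-voom share was also near that of all features. In libraries 1 to 3 of each group they were 4 of 26 (16.4%), and 2 of 26 with the replicate number as a block (14.7%), shares not above those of all features. The losses named for single features are those with 1 library left out, with limma-voom or under another scaling, and where alternatives are counted the fits on libraries 1 to 3 of each group are among them.

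**Figure D4:**
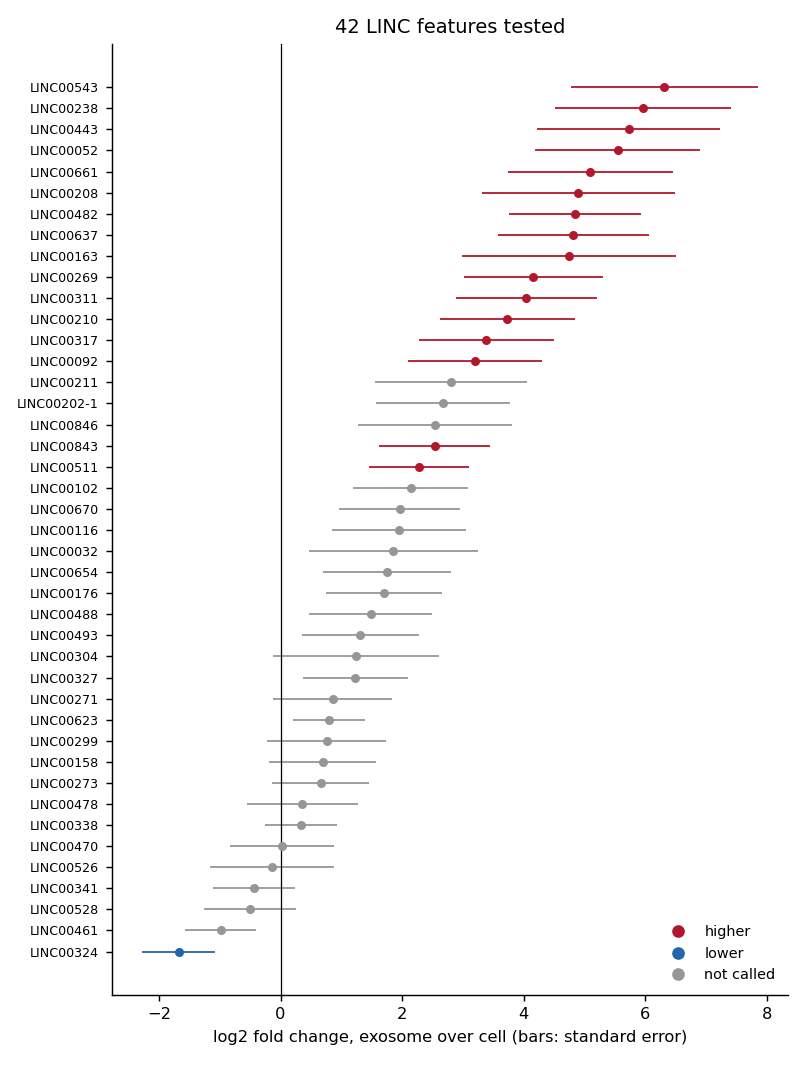
Log2 difference, exosome over cell, of the 42 LINC features tested (points) with standard errors (bars); red is called higher, blue lower and grey not called at an adjusted p under 0.05. LINC00543 is at the top at 6.32 and LINC00324 at the bottom at -1.68.

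Among the 42 LINC features tested, complete separation of the groups was less frequent than the calls. In 17 of the 103 LINC features with reads (16.5%) every exosome library lay above every cell library in CPM, against 12.8% of all features with reads, and 12 of the 42 tested did so (28.6%), against 21.6% of all tested. In no LINC feature did every cell library lie above every exosome library, an order seen in 12.6% of all features with reads and 20.1% of those tested. Of the 16 called higher, 11 had groups apart. LINC00202-1, LINC00472, LINC00484, LINC00595, LINC00359 and LINC00483 had groups apart without a call, the last 5 because they were not tested.

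LINC00482 (chromosome 17, 79277571 to 79283048, minus strand) had the smallest adjusted p. It had 55, 26, 26, 40 and 42 reads in exosomes 1 to 5 and 1, 0 and 5 in cells 1 to 3. Exosomes ran from 0.570 to 2.94 CPM and cells reached 0.0964 CPM, so the groups were far apart. The log2 difference was 4.84 (SE 1.09, adjusted p = 0.00228), and the call held in all 17 alternatives in which the feature was tested (log2 6.52 without cell 3). LINC00637, a transcript divergent from PPP1R13B in its RefSeq name, had 94, 7, 22, 77 and 92 reads in exosomes and 6, 0 and 4 in cells. Its log2 difference was 4.82 (SE 1.25, adjusted p = 0.00537), with the groups apart in CPM. The call held in all 16 alternatives that tested it, with values of 5.41 without exosome 3, 4.11 without exosome 5, 5.54 without cell 1 and 4.09 without cell 2.

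In 6 of the called features the 3 cell libraries held 1 to 3 reads together, so the size of the difference is poorly known. LINC00543 (chromosome 13, 28527663 to 28529507; a single block) had 13, 7, 9, 22 and 47 reads in exosomes and 0, 0 and 1 in cells. Its ratio of scaled counts was 71.8 (95% exact interval 12.6 to 2863, counting error only), beside a fitted log2 of 6.32 (SE 1.53, adjusted p = 0.00371). LINC00238, which RefSeq now lists as the protein-coding gene CCDC196, had 22, 6, 5, 37 and 23 reads against 0, 0 and 1, a ratio of 68.1 (11.9 to 2718). LINC00443 had 21, 4, 4, 67 and 33 reads against 0, 0 and 2, a ratio of 47.2 (12.8 to 394). In all of these the exosome libraries lay above the cell libraries, with exosomes 2 and 3 lowest. The 3 calls held in all 12 alternatives that tested them. Without exosome 1, 4 or 5 none of the 3 features passed the low-count filter, so the calls were not tried there. The fitted values without cell 3 were 8.03 for LINC00543, 7.67 for LINC00238 and 8.17 for LINC00443, the last also at 6.32 without exosome 3.

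The others with 1 to 3 cell reads were LINC00661, LINC00208 and LINC00163. LINC00661 had 42, 5, 12, 14 and 42 reads in exosomes and 2, 0 and 1 in cells, a ratio of 28.1 (95% exact interval 9.37 to 138). Its call (log2 5.10, SE 1.36, adjusted p = 0.00626) held in all 15 alternatives that tested it, at 4.23 without exosome 5, 5.92 without cell 1 and 4.44 without cell 2. LINC00208 had 16, 3, 8, 9 and 52 reads against 3, 0 and 0, a ratio of 21.5 (7.11 to 106). Its groups were apart by little, with 0.0856 CPM in exosome 2 and 0.0823 CPM in cell 1. Its call (log2 4.90, SE 1.59, adjusted p = 0.0206) was lost without cell 2 (4.14) or cell 3 (4.54), and the value was 7.90 without cell 1 and 5.51 without exosome 3. LINC00163 had 10, 0, 1, 9 and 15 reads against 0, 0 and 1, with groups that overlapped and a ratio of 25.6 (4.31 to 1041). Its call (log2 4.75, SE 1.76, adjusted p = 0.0383) was lost without cell 1 (4.26), cell 2 (4.29) or cell 3 (6.46) and with limma-voom (2.60), and the value was 5.34 without exosome 3. Neither LINC00208 nor LINC00163 was tested without exosome 1, 4 or 5.

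LINC00052, LINC00311 and LINC00092 had the highest exosome means of those called higher, and their exosome libraries spread widely. The calls of LINC00052 and LINC00311 held with each library left out. LINC00052 (chromosome 15, 88120160 to 88122917) had 147, 5, 23, 378 and 55 reads in exosomes and 6, 0 and 4 in cells. Exosome 4 (11.1 CPM) was high, and exosome 2 (0.143 CPM) lay below cell 1 (0.165 CPM), so the groups overlapped. Its log2 difference was 5.54 (SE 1.36, adjusted p = 0.00389), lost with limma-voom (4.59) and at 6.16 without exosome 3, 6.26 without cell 1 and 4.90 without cell 2. LINC00311 (chromosome 16, 85316564 to 85319569) had 94, 13, 24, 119 and 164 reads against 6, 1 and 23. Exosome 2 (0.371 CPM) lay below cell 3 (0.443 CPM). Its log2 difference was 4.05 (SE 1.16, adjusted p = 0.0104), lost with limma-voom (3.21) and at 4.64 without exosome 3, 3.05 without exosome 5, 3.40 without cell 2 and 5.43 without cell 3. LINC00092 (chromosome 9, 98782014 to 98790247) had 69, 10, 28, 32 and 157 reads against 15, 7 and 16. Exosome 5 (11.0 CPM) was far above exosome 1 (2.12 CPM), the next highest. Its call (log2 3.19, adjusted p = 0.0277) was lost without exosome 5 (1.65), cell 1 (3.28), cell 2 (2.76) or cell 3 (3.48) and with limma-voom (1.78), and the value was 3.81 without exosome 3 and 3.83 without exosome 4.

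LINC00269, LINC00210, LINC00317 and LINC00843 had groups apart. LINC00269 (X, 68399400 to 68429767) had 42, 13, 20, 40 and 74 reads in exosomes and 1, 1 and 10 in cells (log2 4.16, SE 1.14, adjusted p = 0.00786; 3.17 without exosome 5 and 5.93 without cell 3). LINC00210 had 50, 10, 25, 74 and 9 reads against 2, 0 and 8 (log2 3.73, SE 1.11, adjusted p = 0.0128); the call ended without cell 1 (3.45), and the value was 5.26 without cell 3. The shortest of those called, LINC00317 (612 nt), had 9, 22, 12, 62 and 3 reads against 3, 1 and 3. Exosome 4 (1.82 CPM) stood above the rest of its group. The call of LINC00317 (log2 3.39, SE 1.11, adjusted p = 0.0217) was lost without cell 1 (3.58), cell 2 (3.05) or cell 3 (3.69) and with limma-voom (2.81). LINC00843 had 53, 12, 33, 56 and 21 reads against 10, 1 and 14 (log2 2.54, SE 0.91, adjusted p = 0.0337); that call ended without exosome 1 (2.33), cell 1 (2.71), cell 2 (1.95) or cell 3 (3.12), with limma-voom (2.52) and under total count scaling (2.61).

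LINC00511 (chromosome 17, 70319264 to 70636611, minus strand), the longest at 8615 nt and with the most counted blocks, 25, had 94, 27, 25, 76 and 63 reads in exosomes and 20, 11 and 21 in cells. Exosome 3 (0.548 CPM) lay just below cell 1 (0.549 CPM). Its call (log2 2.28, SE 0.82, adjusted p = 0.0328) was the smallest change among those called higher and was lost without exosome 1 (2.07), exosome 5 (1.88), cell 1 (2.35), cell 2 (1.98) or cell 3 (2.54), with limma-voom (1.75) and under total count scaling (2.26). Its value was 2.88 without exosome 3. By length, 2 of 2 features tested under 1000 nt, 12 of 25 from 1000 to under 3000 nt and 2 of 15 of 3000 nt or more were called higher. Over all features tested, of any length, the share was 20.7%. Only 2 of the 27 LINC features under 1000 nt passed the low-count filter, which a feature can pass through the exosome libraries alone.

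The same libraries were high and low in most of the called features. Among the 16, exosome 5 was the highest exosome library in 12 and exosome 4 in 4, while exosome 2 was the lowest in 10 and exosome 3 in 5. By counts per total count, without TMM factors, exosomes 4 and 5 were each highest in 6 and exosome 1 in 4, with exosome 2 lowest in 11. Of the 16, 10 had no read in cell 2, 4 had none in cell 1 and 1 had none in cell 3. Exosome 5 was also the library with the largest rRNA share and the smallest TMM factor, and the part of these in the differences was not tested.

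**Figure D5:**
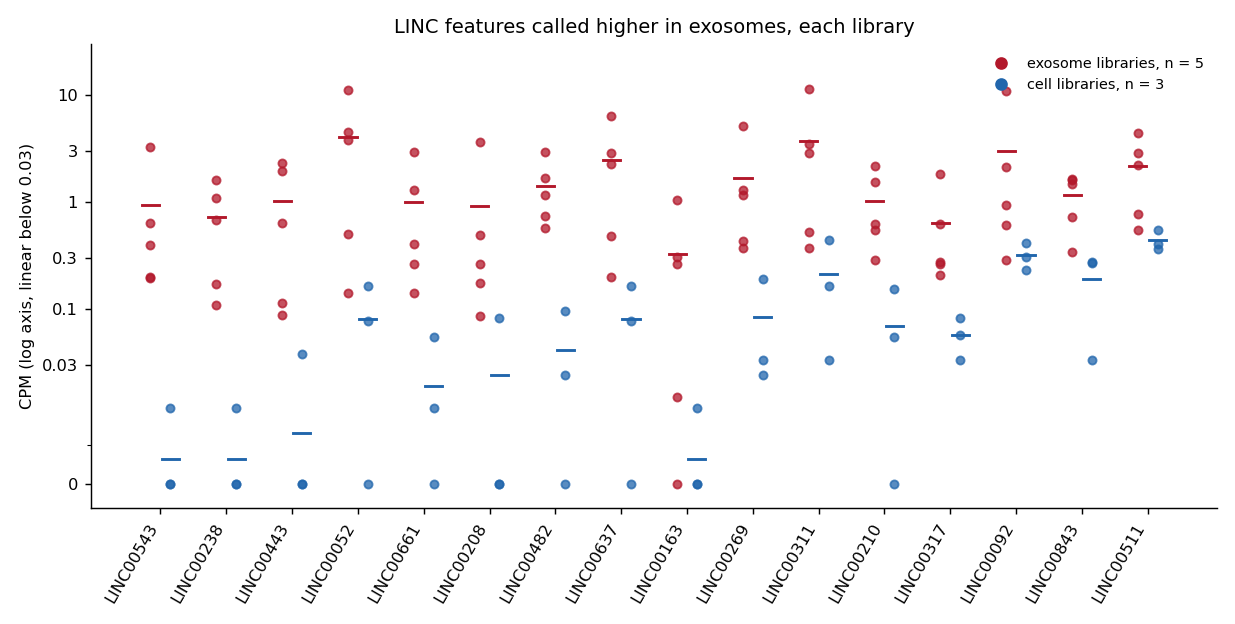
CPM (log axis, linear below 0.03) of the 16 LINC features called higher in exosomes, ordered by log2 difference; red points are 5 exosome libraries, blue points 3 cell libraries and bars the group means. The exosome libraries of a feature spread widely, as for LINC00052 from 0.143 to 11.1 CPM, and 5 of the 16 features have overlapping groups.

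Among the 25 features not called, 3 had an unadjusted p under 0.05: LINC00202-1 (log2 2.67, adjusted p = 0.0603), LINC00102 (2.14, 0.0773) and LINC00211 (2.80, 0.0815). LINC00341 (0.874 ± 0.451 against 1.19 ± 0.156 CPM, log2 -0.44), LINC00528 (0.556 ± 0.315 against 0.778 ± 0.0636 CPM, log2 -0.50), LINC00158 (0.721 ± 0.451 against 0.446 ± 0.335 CPM, log2 0.69) and LINC00470 (0.461 ± 0.287 against 0.455 ± 0.250 CPM, log2 0.02) were among the most abundant in cells. LINC00341 and LINC00528 turned to 0.35 and 0.21 with totals without rRNA as library size, and LINC00470 turned to -0.30 without exosome 1. LINC00116 (MTLN; log2 1.95, adjusted p = 0.164) and LINC00493 (SMIM26; log2 1.32, adjusted p = 0.291), which encode small proteins, were not called. LINC00242 and LINC00574 overlap on opposite strands of chromosome 6. Their reads cannot be told apart unless strand was used in counting, which no label or header states, and neither was tested.

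Of 35 features on a list of antisense transcripts, miRNA host genes and named long RNAs, 27 were tested, 5 (18.5%) were higher and 1 (3.70%) was lower, against 20.7% and 22.3% of all features tested. The share called higher was near that of all features. The median log2 over these 27 was 1.21. Those that rose included FTX (log2 2.63, SE 0.69, adjusted p = 0.00586), a regulator of X inactivation, and MEG3 (4.30, SE 1.23, adjusted p = 0.0102), an imprinted RNA. The abundant nuclear RNAs MALAT1 (log2 -0.16) and NEAT1 (-1.30, adjusted p = 0.0955) were not called. Of 26 host genes of small RNAs, 24 were tested, 1 (4.17%) was higher and 8 (33.3%) were lower, against the same 20.7% and 22.3%, with a median of -0.67. GAS5, an snoRNA host, fell by 4.57 on the log2 scale (adjusted p = 2.12e-05). The 2 lists share features. C17orf76-AS1 (log2 -5.31), the single lower feature of the first list, is among the 8 lower ones of the second.

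Markers of some other tissues were higher in exosomes and those of others were not called. MIR122, a liver miRNA, ran from 19.9 to 114 CPM in exosomes and from 0.424 to 2.00 CPM in cells, and 2 of 4 stromal and endothelial miRNAs (MIR143 and MIR126) were called higher, with a list sum of 16.4 to 83.3 against 2.13 to 7.30 CPM. Of 2 epithelial miRNAs MIR203 was called higher, neither of 2 myeloid and red cell miRNAs was, and the 2 muscle miRNAs had too few reads to be tested. The 2 neural miRNAs with reads were not called and were at -1.28 (MIR9-1) and -1.27 (MIR9-3). None of the 6 lymphoid markers was called (list sums above). The part of foreign RNA in the LINC differences was not tested.

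Patterns over the 8 libraries were compared by Spearman's rho of log2 CPM, as a description. The features most like LINC00461 were MIR9-1, MIR9-3 and the tRNA-length feature 23732 (rho 0.976 each). Among those most like LINC00324 were the numbered features 7631, 7634 and 7637 (rho 0.958 each), which do not lie within its span. LINC00238, LINC00443, LINC00543 and MIR3118-3 had the same rank order (rho 1 for LINC00238 with each of the others). The order of LINC00338 was most like that of MIR28 (0.976), MIR548S (0.939) and JPX (0.929). The 8 libraries fall into 2 groups and share their scaling. LINC00238, LINC00443 and LINC00543 were tied at 0 reads in cells 1 and 2. The features named were picked as the closest matches among all features, so a high rho alone says little.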

How the data were processed

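Each deposited table gives raw read counts with GRCh37 coordinates and the counted length of every feature, per the file headers, in featureCounts format. Before deposit the authors used cutadapt 1.1, STAR and featureCounts, and DESeq2 1.8.2 for their comparison, with build GRCh37 (hg19, hs37d5), per the submitters' processing notes. Settings for strand and for multiply mapped reads: not given in the sources used here.

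Counts of all 2709 features in 5 exosome and 3 cell libraries, grouped by their titles, were fitted with edgeR 4.0.16 in R 4.3.3: the default low-count filter (minimum count 10), TMM factors and the quasi-likelihood test. A feature was called at a Benjamini-Hochberg adjusted p under 0.05 over all 1178 tested. The standard error is the log2 value divided by the square root of F. Group totals of 1 to 3 counts were also given as a ratio with a 95% exact binomial interval. Small RNAs were placed with RefSeq GRCh38.p14 and GENCODE 29, within 1 build or by exon lengths and spacing. The code was tested on simulated data.

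Features named are all those called, the 10 most abundant in each group, hosts of small RNAs, and their small RNAs. LINC00202-1, LINC00102, LINC00211, LINC00116, LINC00493, LINC00242, LINC00574, the features without reads and those apart but untested were named after their values were seen. Members and lists were chosen with earlier results of these data known. DESeq2 1.42.0 and limma 3.58.1 (voom), 3 other scalings, 2 other filters, a replicate block and each library left out were tried as alternatives.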

Additional observations from a re-analysis of the deposited data

Results flagged for a closer look

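In 9 of the 30 groups of exosome values tested, the highest library stood apart from the other 4 by more than Dixon's 95% limit, which chance alone gives in about 1 in 20 groups of normally distributed values. CPM values of sparsely read features are skewed, so that rate is only a guide here. Exosome 5 was that library for LINC00311 (11.5 CPM), LINC00092 (11.0 CPM), LINC00324 (7.69 CPM), LINC00269 (5.17 CPM), LINC00208 (3.64 CPM) and LINC00543 (3.29 CPM). Exosome 4 was that library for LINC00317 (1.82 CPM) and LINC00334 (0.0587 CPM, the 2 reads of this feature, where the other 4 libraries are at 0 and the limit is passed by construction), and exosome 1 for LINC00341 (1.66 CPM). The 6 values of exosome 5 share its TMM factor of 0.524, the smallest of the 8, whose part in them was not tested.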

How the results depend on the processing

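The number of LINC features called higher, 16 of 42 (20.7% of all features tested), became 26 of 72 given an adjusted p with DESeq2 (21%). It was 28 of 103 without the low-count filter (15.1%) and 9 of 42 with limma-voom (19.5%). With at least 50 counts in 3 libraries it was 4 of 9 tested (27.1%). With each library left out it was 9 to 17, of 32 to 58 tested (14% to 24.1%). The design text says that 3 exosome samples have matched cell samples without naming them. Libraries 1 to 3 of both groups share numbers, but same-numbered libraries deviated together only weakly (correlations of 0.03, -0.054 and 0.169). The numbers were therefore not taken as pairs. With so few libraries behind each group mean, this check cannot exclude that they are pairs. With the replicate block 2 of 26 tested were called (14.7% of all features), and 4 in the same 6 libraries without it (16.4%), a fit chosen after seeing the data. Of the 16 calls 8 could be tested there. LINC00482 and LINC00210 were called in both fits. LINC00269 (adjusted p = 0.0623 with the block, 0.0249 without) and LINC00317 (0.0983 and 0.0351) were called only without the block, and LINC00092, LINC00311, LINC00511 and LINC00843 in neither. The number called lower, 1, was 0 under the 3 other scalings, DESeq2 (which gave LINC00324 no adjusted p), limma-voom, both filters, the block, the 6 libraries without it and the subtraction of small RNA counts, and 0 to 1 with each library left out.

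Signs turned for features not called. With the block, LINC00273 was at -0.47, LINC00338 at -0.24 and LINC00470 at -0.38, and in the same libraries without it at -0.51, -0.13 and -0.093. LINC00470 was at -0.11 with limma-voom, and LINC00341 at 0.35 and LINC00528 at 0.21 with totals without rRNA. With each library left out, LINC00338 ran from -0.19 (without exosome 5) to 0.83, LINC00470 from -0.37 (without cell 1; -0.30 without exosome 1) to 0.58, LINC00478 from -0.17 (without exosome 1; -0.061 without cell 2) to 0.90, LINC00341 from -0.73 to 0.066 (without exosome 4) and LINC00528 from -0.79 to 0.042 (without exosome 4). LINC00461 was at 4.06 with the MIR9-1 count subtracted. The cause of these turns was not tested. Of the log2 values compared, 343 kept direction and side of the threshold, 56 lost the call and 17 turned.

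The LINC sum in exosomes, 164 per 1000000 counts, was 355 with rRNA left out of the total and 85.4 without LINC00338, and 146 to 187 with each library left out. In cells, 124 became 62.0 without LINC00338 and 93.9 to 148 with each library left out. With rRNA left out the cell sum would rise too, since rRNA took 24.6% to 30.7% of cell counts. The value of 355 is therefore not comparable with 124. Spearman's rho with length was -0.074 in exosomes and 0.34 in cells over features with at least 10 counts in 3 libraries. Depth limits the results: 64 of 106 features had too few reads to be tested, and 1 read in a library was worth 0.0193 to 0.0699 CPM.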
